A study of Homo sapiens with 6 samples.

Results

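The genes that write and erase marks on histones and DNA, and those that move nucleosomes, were examined in A549 cells cultured for 7 days on attachment plates with or without LA717. They were the genes whose platform symbol begins with KDM, KMT2, MLL, SETD, HDAC, SIRT, SMARC, CHD, KAT, DNMT, TET, EZH or SUV, followed by the numbers of those families, with antisense names left out. This gave 74 of 14884 annotated genes, of which 24 were writers, 39 erasers and 10 remodelers, and 1, KDM7A-DT, was a non-coding divergent transcript that shares the name of its neighbour. The 10 remodelers were all CHD genes, and SMARC genes were not analysed here. Where several probe sets measured a gene, the one with the brightest mean was used, and HDAC2, HDAC4, SUV39H1 and TET1 had a further one.

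A549 is an established human lung adenocarcinoma line, grown here in DMEM with 10% fetal bovine serum. The LA717 group received LA717, an agar of low molecular weight, at 0.03% (w/v), and the control group received Milli-Q water, with 3 arrays in each group. One label of the LA717 arrays names low-attachment plates, whereas their titles and the treatment protocol name attachment plates. The labels do not say whether the arrays of a group came from separate cultures, though the study describes microarray values of its 3D against 2D comparison as coming from independent experiments. The p-values measure the spread between these arrays. Values are log2 intensities, and as probe sets differ in how brightly they respond, levels are compared between arrays and not between genes.

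Writers attach methyl or acetyl groups to histone tails or methyl groups to cytosine, erasers take them off, and remodelers use ATP to slide, evict or exchange nucleosomes. Acetylation and some methyl marks accompany active genes, whereas the methyl marks set by the EZH and SUV39 enzymes accompany silent ones. Several of these enzymes copy marks onto newly made DNA, and their genes are known to be transcribed most in dividing cells. Sirtuins need NAD, and the demethylases of the KDM2 to KDM8 families and the TET enzymes need oxygen and 2-oxoglutarate, which ties them to the metabolic state of a cell.

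The 6 arrays were alike, with medians of 3.19 to 3.23 and pairwise correlations across probe sets of 0.9899 to 0.9913. Across all 53617 probe sets, 0 passed an adjusted p under 0.05 by limma (0% called), and 2845 had an unadjusted p under 0.05 (5.31%). The epithelial keratin gene KRT18 was at 11.13 in control and 11.05 with LA717, and the epithelial adhesion gene EPCAM at 7.23 and 7.14. The other epithelial markers measured were KRT19 at 6.48 and 6.44, KRT8 at 6.18 and 6.15 and KRT7 at 5.71 and 5.77. The surfactant gene SFTPC was at 4.32 and 4.39, SFTPD at 4.76 and 4.89, and the lung transcription factor gene NKX2-1 at 3.44 and 3.51. The other alveolar markers were SFTPB at 3.87 and 3.93, NAPSA at 3.39 and 3.12 and SFTPA1 at 2.77 and 2.46. Of the 6 alveolar markers 1, SFTPA1, was under the median of all probe sets. Of the 2 fibroblast markers measured LUM was at 6.18 and 5.80 and DCN at 1.70 and 1.66, the leukocyte marker CD14 was at 7.86 and 7.77, and the 3 endothelial markers had means of 2.94 to 3.13. As levels of different probe sets cannot be set against each other, these values describe the markers and do not settle the cell type.

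The chromatin genes differed little between LA717 and control. The difference LA717 minus control lay between −0.20 (SIRT1) and 0.26 (SETD9) on the log2 scale, 37 of the 74 genes were above 0 and 37 below, and the median was 0.0020, against −0.0061 over all genes. At least 2-fold differences were found in 0 of 74 genes (0% of all genes). The 95% interval of the difference lay within 2-fold for all 74 members (99.6% of all genes) and also within 1.5-fold for all 74 (91.6% of all genes), the most distant bound, that of SUV39H2, corresponding to 1.45-fold. The intervals reached a median of 0.23 to either side, so a smaller difference in a single gene was within the error. These intervals were not widened for the number of genes. They say less of 3 dim erasers, KDM4E, HDAC9 and SIRT4, whose means of 2.53, 2.90 and 3.11 were under the median of all probe sets (3.19).

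**Figure D1:**
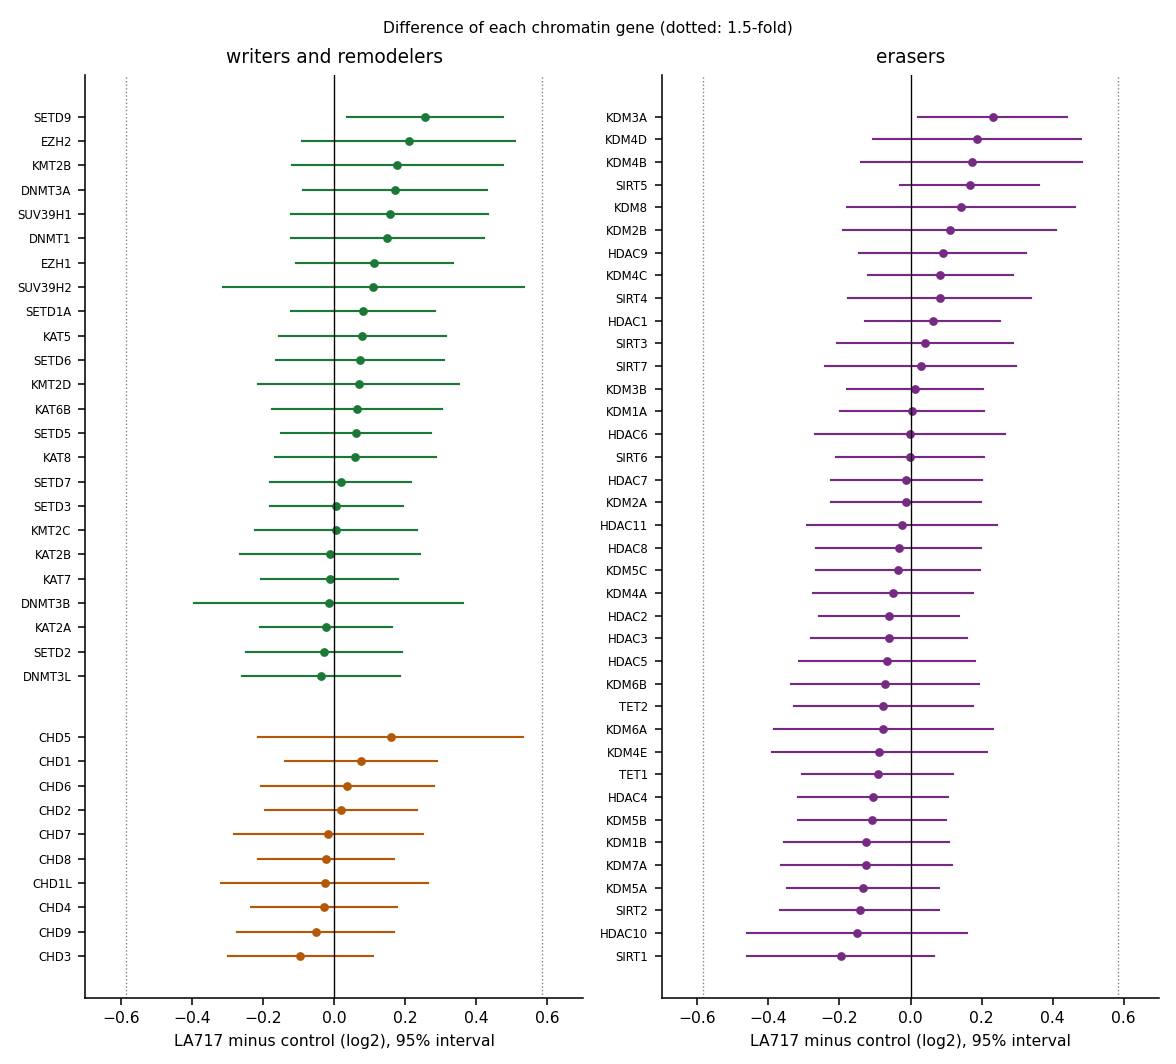
Difference LA717 minus control (log2, horizontal axis) for 72 chromatin genes, ordered within writers (green), remodelers (orange) and erasers (purple). Points are the differences of the means of 3 arrays per group, lines their 95% limma intervals and dotted lines mark 1.5-fold. Every interval ends inside the dotted lines, and those of SETD9 and KDM3A leave out 0.

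By limma 0 of the 74 genes passed adjustment over all probe sets, and 0.92 was their lowest adjusted p. Before adjustment 2 members had a p under 0.05 (2.7%), SETD9 and KDM3A, where 4.4% of all genes were called. Both were higher with LA717 (1.89% of all genes) and 0 were lower (2.51% of all genes). In 5 members (6.76%) the 2 groups of arrays were apart, without overlap, against 11.5% of all genes. All 5, which were SETD9, KDM3A, SIRT5, EZH1 and HDAC1, were higher with LA717, against 4.86% of all genes in that direction, and 0 were lower, against 6.66%. Over both directions these shares were under those of all genes. With LA717 higher alone they were above, at 2.7% against 1.89% and 6.76% against 4.86%, resting on 2 and 5 genes.

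Of the 24 writers 18 had a positive difference (75%), whereas 47.9% of all genes did, and their median was 0.067. The mean of the writers on each array was 6.23, 6.25 and 6.23 in control and 6.28, 6.32 and 6.33 with LA717 (log2 intensity, replicates 1 to 3), so the groups did not overlap. Among the erasers 15 of 39 were positive (38.5%), with a median of −0.025, and their array means ran from 5.83 to 5.86 in control and from 5.82 to 5.86 with LA717. The CHD remodelers were positive in 4 of 10, with a median of −0.019 and overlapping array means (6.79 to 6.86 in both groups). The genes were all read from the same 6 arrays and are not replicates of the condition, so these counts carry no test.

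**Figure D2:**
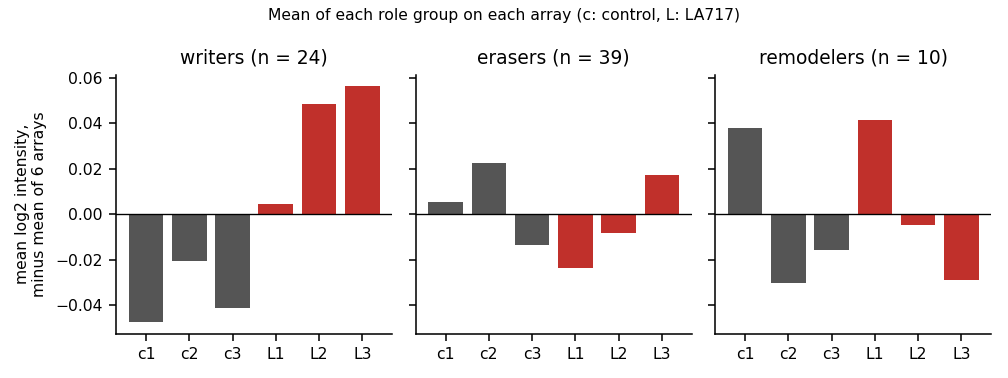
Mean log2 intensity of the writers, erasers and remodelers on each array, minus the mean over the 6 arrays (c, control in grey; L, LA717 in red; replicates 1 to 3). The writers were below their mean on the 3 control arrays and above it on the 3 LA717 arrays, while the erasers and remodelers showed no such separation.

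**Figure D3:**
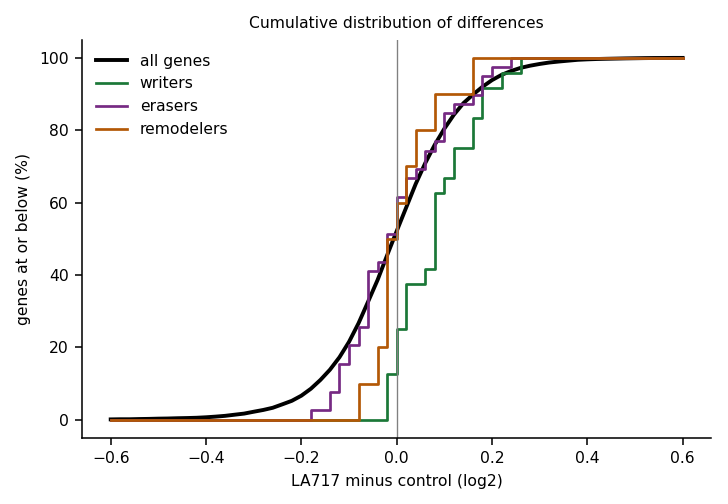
Share of genes (%, vertical axis) with a difference LA717 minus control (log2, horizontal axis) at or below each value, for all 14884 genes (black), 24 writers, 39 erasers and 10 remodelers. The median of the writers lies at 0.067 and that of all genes at −0.0061. The curve of the writers crosses that of all genes near the upper end. Those of the erasers and remodelers cross it already at negative differences.

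Of the 18 positive writers 13 carried the names of histone methyltransferases (KMT2, SETD, EZH and SUV39), 3 those of acetyltransferases and 2 those of DNA methyltransferases. The histone methyltransferase names were positive in 13 of 14, where 47.9% of all genes were, with a median of 0.077. The other one, SETD2, which sets a methyl mark along transcribed genes, was at −0.03. Among the 13, KMT2C, SETD3 and SETD7 were at only 0.01, 0.01 and 0.02, well within their error. The acetyltransferases were split, 3 of 6 being positive with a median of 0.025, and ranged from −0.02 for KAT2A (GCN5) to 0.08 for KAT5 (TIP60). KAT2A was also among the steadiest members, all 6 of its values lying between 7.95 and 8.02. SETD3, which methylates actin rather than histones, was as steady, at 8.25 to 8.32.

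SETD9 had the greatest difference of the members. Its probe set read 3.91, 3.70 and 3.89 in control and 4.13, 4.05 and 4.08 with LA717, every LA717 array being above every control array. The difference was 0.26 (SE 0.094, 1.20-fold, 95% interval 0.04 to 0.48) with an unadjusted limma p of 0.027 and an adjusted p of 0.92. Leaving out single arrays gave 0.19 to 0.29, and the unadjusted p was no longer under 0.05 without control replicate 2, LA717 replicate 1 or LA717 replicate 3. The mean of the probe set was 3.96, not far above the median of all probe sets (3.19). KMT2B, a methyltransferase of active promoters, differed by 0.18 (SE 0.13), with 6.21, 5.77 and 6.07 in control and 6.26, 6.13 and 6.20 with LA717. The groups overlapped, and without control replicate 2, the lowest array, the difference was 0.05. Its relatives KMT2C and KMT2D, which act at enhancers, were at 0.01 and 0.07, and SETD1A, another methyltransferase of active promoters, at 0.08.

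The genes of the Polycomb methyltransferases EZH1 and EZH2 were both higher in the mean with LA717. EZH2, the form of dividing cells, was at 5.74, 5.73 and 6.02 in control and 5.87, 6.04 and 6.21 with LA717, a difference of 0.21 (SE 0.13, 1.16-fold, interval −0.09 to 0.51, limma adjusted p = 0.92). Control replicate 3 lay above LA717 replicate 1, so the groups overlapped. EZH1, the form known from resting cells, was at 7.48, 7.50 and 7.41 and at 7.51, 7.71 and 7.51, a difference of 0.11 (SE 0.094, interval −0.11 to 0.33). Its groups did not overlap, but LA717 replicate 2 stood apart from the other two, and without it the difference was 0.05.

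DNMT1, which copies cytosine methylation onto new DNA strands, was at 7.17, 7.06 and 7.37 in control and 7.24, 7.33 and 7.49 with LA717. This gave a difference of 0.15 (SE 0.12, interval −0.12 to 0.42), with overlapping groups. The de novo methyltransferase genes DNMT3A and DNMT3B differed by 0.17 (SE 0.11) and −0.02 (SE 0.16), and DNMT3L, which encodes a cofactor without catalytic activity, by −0.04. DNMT3B was uneven in control, at 4.24, 4.72 and 4.16, and without control replicate 2 its difference turned to 0.16. The genes of the heterochromatin methyltransferases SUV39H1 and SUV39H2 were at 0.16 (SE 0.12) and 0.11 (SE 0.18), and the second probe set of SUV39H1 gave 0.13. SUV39H2 had the widest spread of the members over the 6 arrays (0.76). It read 4.55, 4.56 and 4.56 in control and 4.26, 4.73 and 5.01 with LA717, so 1 LA717 array lay below the controls and the other two above, and without LA717 replicate 3 the difference was −0.06.

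The promoters of EZH2, DNMT1 and EZH1 are shown because they were the only ones of 66 member promoters to hold a word of the E2F family, the factors that drive genes of the DNA replication phase. The words TTTGGCGC, TTTCCCGC, TTTCGCGC and TTTGCCGC were searched on both strands in 200 bases, from 170 before to 30 after the first start listed for each gene (RefSeq, GRCh38.p14), and were present in 2.38% of 27305 genes and in 4.55% of the members. The words are in capitals below, at the start of transcription in EZH2 (chr7:148884262-148884461, minus strand) and DNMT1 (chr19:10194924-10195123, minus strand) and farther upstream in EZH1 (chr17:42745011-42745210, minus strand). In DNMT1 and EZH1 the capitals are the reverse complement of the word. A match is a description of the letters and not a bound site.
EZH2: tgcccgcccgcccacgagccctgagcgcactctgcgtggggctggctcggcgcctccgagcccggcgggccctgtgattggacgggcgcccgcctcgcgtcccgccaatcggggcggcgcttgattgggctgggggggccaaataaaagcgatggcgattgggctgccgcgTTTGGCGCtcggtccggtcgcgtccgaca
DNMT1: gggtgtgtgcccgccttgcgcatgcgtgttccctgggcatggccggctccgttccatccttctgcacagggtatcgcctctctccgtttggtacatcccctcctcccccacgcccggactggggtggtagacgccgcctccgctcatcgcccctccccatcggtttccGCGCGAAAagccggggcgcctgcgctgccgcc
EZH1: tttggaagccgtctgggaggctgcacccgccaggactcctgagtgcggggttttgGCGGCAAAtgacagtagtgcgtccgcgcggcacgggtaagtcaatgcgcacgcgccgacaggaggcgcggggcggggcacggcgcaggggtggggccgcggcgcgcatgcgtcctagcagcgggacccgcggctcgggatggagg

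The levels of EZH2 and DNMT1 moved between arrays of one group as much as between groups. A mitosis list of 15 measured genes had array means of 6.98, 6.99 and 7.40 in control and 7.08, 7.32 and 7.51 with LA717, with a median difference of 0.17, and a DNA replication list of 17 had 6.64, 6.63 and 6.91 and then 6.76, 6.91 and 7.05, with a median of 0.18. Ordered by EZH2, the 6 arrays stood exactly as by the DNA replication mean (control 2, control 1, LA717 1, control 3, LA717 2, LA717 3). By DNMT1 the order was the same but for control 3, which then lay between LA717 2 and LA717 3. The mitosis mean gave another order (control 1, control 2, LA717 1, LA717 2, control 3, LA717 3). So did SUV39H1 (control 1, LA717 1, control 2, control 3, LA717 3, LA717 2). SUV39H2 differed as well (LA717 1, control 1, control 2, control 3, LA717 2, LA717 3). Between arrays of the same number, LA717 was above control each time for EZH2, DNMT1, SUV39H1 and the means of both lists. For SUV39H2 it was below in replicate 1 and above in the others. Pairing by number was not assumed. With a replicate block the limma adjusted p was 0.89 for EZH2, DNMT1 and SUV39H1. Without control replicate 3 the difference of EZH2 rose to 0.31 and without LA717 replicate 3 it was 0.13. The part of cell division in these differences was not tested, and an array of a whole culture cannot tell a larger share of dividing cells from more RNA per cell. Among the 20 writers other than EZH2, DNMT1, SUV39H1 and SUV39H2, 14 were positive with a median of 0.061, and the array means were 6.29, 6.32 and 6.26 in control and 6.35, 6.35 and 6.33 with LA717. The genes left out were picked by name, and the part of cell division in the other writers was not tested either.

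**Figure D4:**
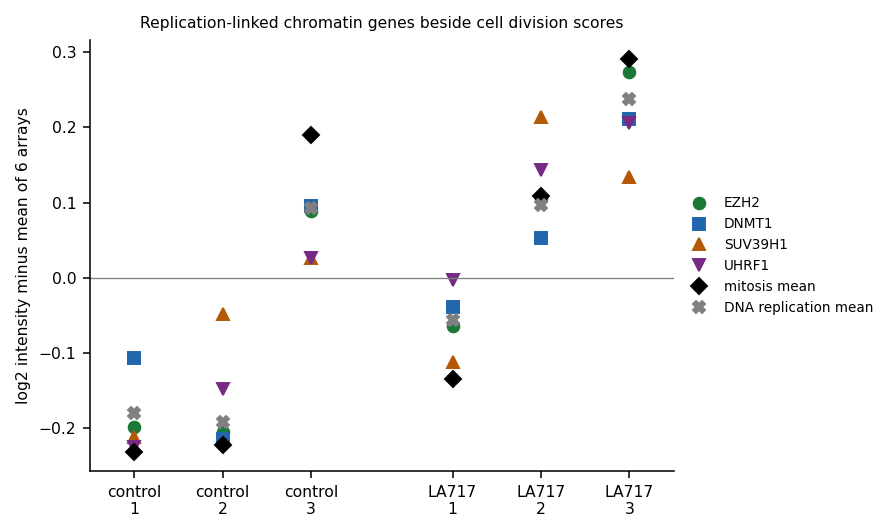
Log2 intensity on each array minus the mean over the 6 arrays (vertical axis) for EZH2, DNMT1, SUV39H1 and the reader gene UHRF1, with the mean of 15 mitosis genes (black) and of 17 DNA replication genes (grey). Control replicate 3 lies with the higher arrays and LA717 replicate 1 with the lower ones, so the groups overlap. Between arrays of the same number each of these was higher with LA717.

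Among the erasers KDM3A had the greatest difference. It encodes a demethylase that removes a silencing methyl mark from histone H3 and is known as a gene induced by hypoxia-inducible factors. It was at 6.51, 6.54 and 6.61 in control and 6.68, 6.86 and 6.81 with LA717, each LA717 array being above each control array. The difference was 0.23 (SE 0.089, 1.17-fold, interval 0.02 to 0.44), with an unadjusted limma p of 0.035 and an adjusted p of 0.92. Leaving out single arrays gave 0.19 to 0.28, and the unadjusted p rose above 0.05 without control replicate 1, control replicate 2, LA717 replicate 2 or LA717 replicate 3. Its close relative KDM3B stayed between 8.29 and 8.38 on all arrays, with a difference of 0.01 (SE 0.082, interval −0.18 to 0.20). KDM4B, also known as a hypoxia-induced demethylase gene, was at 5.01, 4.88 and 4.71 and at 4.92, 4.92 and 5.27, a difference of 0.17 (SE 0.13) that fell to 0.06 without LA717 replicate 3.

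Beside KDM3A, other hypoxia-induced genes, chosen with their values known, were BNIP3 at 0.37 (SE 0.091), DDIT4 at 0.30 (SE 0.086), HILPDA at 0.30 (SE 0.10) and NDRG1 at 0.29 (SE 0.13). In the first 3 of these the groups did not overlap, with LA717 higher (4.86% of all genes), and their limma adjusted p was 0.88 to 0.92. Being chosen in this way, these genes give KDM3A no support, and whether oxygen supply had a part in its difference was not tested. The promoter of KDM3A is shown because it holds the core that these factors bind, ACGTG or GCGTG, searched on both strands in the same window and printed in capitals (chr2:86441201-86441400, plus strand, GRCh38.p14). The core is short and was present in 38.4% of 27305 genes and in 56.1% of 66 members, KDM4B included.
KDM3A: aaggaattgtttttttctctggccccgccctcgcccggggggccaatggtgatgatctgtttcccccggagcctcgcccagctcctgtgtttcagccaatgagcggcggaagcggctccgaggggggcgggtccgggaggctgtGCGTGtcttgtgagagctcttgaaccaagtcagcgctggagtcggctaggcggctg

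The demethylases as a family, KDM3A and KDM4B included, were spread around 0, 9 of 19 being positive, with a median of −0.01. KDM1A (LSD1), which removes methyl marks of active promoters, was steady, at 8.68, 8.72 and 8.80 in control and 8.69, 8.81 and 8.72 with LA717 (difference 0.00, SE 0.086, interval −0.20 to 0.21). KDM5A and KDM5B, which remove the same mark in its trimethylated form, were lower in the mean, at −0.13 (SE 0.091) and −0.11 (SE 0.089), with groups that overlapped. KDM6A and KDM6B, which remove the Polycomb mark, differed by −0.08 (SE 0.13) and −0.07 (SE 0.11). Each rested on 1 array, KDM6A turning to 0.05 without LA717 replicate 1 and KDM6B to 0.04 without LA717 replicate 3. KDM4D, whose probe set was close to the median of all probe sets, was at 3.23, 3.09 and 3.07 and at 3.40, 3.08 and 3.48, a difference of 0.19 (SE 0.13), with LA717 replicate 2 among the controls. The Y-linked KDM5D was counted among the members, and no level is given for it. KDM7A and the transcript KDM7A-DT, which share a promoter region, were at −0.12 (SE 0.10) and −0.16 (SE 0.14).

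Of the HDAC genes 9 of 11 had a negative difference, where 7752 of 14884 genes did, with a median of −0.03, and HDAC6 and HDAC7 among the 9 were close to 0 (0.00 and −0.01). HDAC1, a catalytic subunit of the SIN3 and NuRD corepressors, was higher, at 8.26, 8.31 and 8.20 in control and 8.31, 8.32 and 8.32 with LA717. The nearest arrays of the groups almost touched, and the difference of 0.06 (SE 0.081, interval −0.13 to 0.25) was within the error. HDAC2, its partner in the same complexes, gave −0.06 on its brighter probe set, annotated to a non-coding transcript, and 0.07 on the dimmer one (mean 1.74), annotated to its messenger RNA, so it had no settled sign. HDAC3, the enzyme of the NCoR corepressor, was at −0.06 (SE 0.094). HDAC4, a class IIa enzyme that shuttles between nucleus and cytoplasm, differed by −0.11 (SE 0.090) on its main probe set. Its second probe set, also annotated to a non-coding transcript, was at 3.59, 3.75 and 3.96 in control and 3.62, 3.38 and 3.23 with LA717, a difference of −0.35 with an unadjusted limma p of 0.038 and an adjusted p of 0.92. LA717 replicate 1 lay above control replicate 1. HDAC10 was the lowest of the family at −0.15 (SE 0.13), and HDAC6, the tubulin deacetylase, had an SE of 0.11.

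The sirtuins went both ways, with 4 of 7 positive and a median of 0.03. SIRT1, the nuclear deacetylase of histones and p53, had the lowest difference of the members. It was at 7.91, 8.11 and 7.94 in control and 7.63, 7.80 and 7.94 with LA717, so that LA717 replicate 3 reached the control values and the groups overlapped. The difference was −0.20 (SE 0.11, interval −0.46 to 0.07, limma adjusted p = 0.92) and stayed between −0.27 and −0.12 when single arrays were left out. SIRT2, mainly cytoplasmic, was at −0.14 (SE 0.096). SIRT5, a mitochondrial enzyme that removes succinyl and malonyl groups, was higher on all LA717 arrays, at 5.30, 5.23 and 5.35 in control and 5.48, 5.48 and 5.42 with LA717. Its difference was 0.17 (SE 0.084, interval −0.03 to 0.36), with an unadjusted limma p of 0.084. The mitochondrial deacetylase gene SIRT3 was at 0.04 (SE 0.11), and the nuclear SIRT6 and SIRT7 were at 0.00 and 0.03. TET1 and TET2, which oxidise methylated cytosine, differed by −0.09 (SE 0.091) and −0.08 (SE 0.11), and the 2 probe sets of TET1 both gave −0.09.

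**Figure D5:**
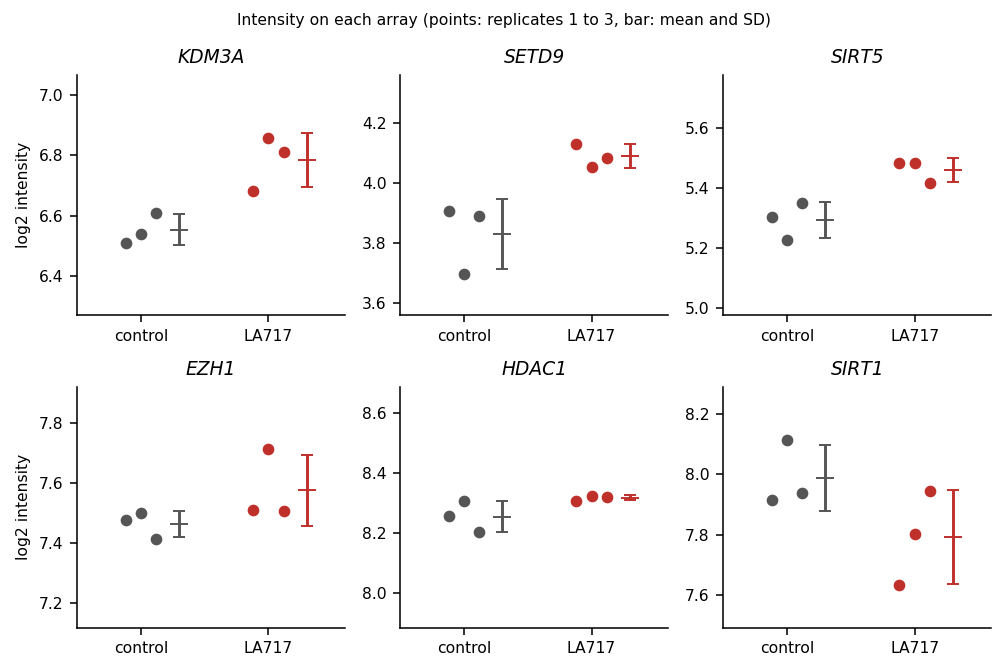
Log2 intensity (vertical axis, a span of 0.8 in each panel) on the 3 control (grey) and 3 LA717 (red) arrays for the 5 members whose groups did not overlap and for SIRT1, the member with the lowest difference. Points are arrays and bars the mean with its SD, and the separation in HDAC1 and EZH1 is narrower than in KDM3A, SETD9 and SIRT5.

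Among the CHD remodelers there were 0 of 10 genes at an unadjusted p under 0.05 (4.4% of all genes) and 0 whose groups were apart (11.5% of all genes). CHD4 and CHD3, the ATPases of the NuRD complex, were at −0.03 (SE 0.088, interval −0.23 to 0.18) and −0.09 (SE 0.087, interval −0.30 to 0.11). CHD4 read 8.21, 8.23 and 8.29 in control and 8.31, 8.15 and 8.18 with LA717, and its sign rested on LA717 replicate 2. CHD3 lay between 8.96 and 9.12 in control and read 8.90, 8.96 and 8.94 with LA717, the LA717 values lying at the low end with a slight overlap. CHD1, which binds methylated histone H3 at active genes, was at 0.08 (SE 0.091), CHD6 at 0.04 and CHD9 at −0.05. CHD8, which binds beta-catenin, kept within 7.47 to 7.57 on all arrays. CHD5, known mainly from neural tissue, had the greatest difference, 0.16 (SE 0.16), on a probe set with a mean of 4.06 that ranged over 0.69 among the arrays, and it fell to 0.02 without control replicate 2.

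Genes of partner proteins of these enzymes differed by −0.27 to 0.23. Of 137 genes in 8 lists of complex subunits, further enzymes and readers, 97 were measured by a probe set that names 1 gene. Of these 97, 59 were positive, with a median of 0.025 (−0.0061 over all genes). In 8 of the 97 the groups were apart with LA717 higher (4.86% of all genes), and in 1 with LA717 lower (6.66%). At an unadjusted p under 0.05 by limma there was 1 (1.03%, where 4.4% of all genes were called), and 0 passed adjustment. This was CBX3, the gene of a heterochromatin protein that reads the mark set by SUV39H1, at 7.16, 7.09 and 7.08 in control and 7.27, 7.28 and 7.35 with LA717, a difference of 0.20 (SE 0.082, adjusted p = 0.92). In that list of readers 9 of 11 were positive (median 0.10). As with the writers, the array means of the readers did not overlap. They were 7.12, 7.14 and 7.17 in control and 7.19, 7.26 and 7.26 with LA717. UHRF1, which guides DNMT1 to newly replicated DNA, was among the positive ones, at 0.23 (SE 0.11). It was at 6.28, 6.36 and 6.53 in control and 6.50, 6.65 and 6.71 with LA717, with control replicate 3 again among the LA717 values.

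The PRC1 and PRC2 partners were positive in 13 of 19 with a median of 0.02. PHF19, a PRC2 accessory subunit, was at 0.22 (SE 0.10) with groups that did not overlap, and CBX7, a PRC1 subunit that reads the Polycomb mark, at −0.27 (SE 0.13) with an overlap of 1 array. Writers outside the naming rule were positive in 12 of 16 (median 0.056), with EHMT2 (G9a) at 0.14 (SE 0.080) and KMT5A at 0.13 (SE 0.092). Their array means did not overlap either, at 6.62, 6.61 and 6.61 in control and 6.65, 6.64 and 6.70 with LA717. Apart from these and the readers, the array means of the partner lists overlapped. The medians of the other lists were −0.0048 for COMPASS partners (9 genes), 0.025 for the SIN3, NuRD, CoREST and NCoR partners (11), −0.0037 for BAF and PBAF partners (11), 0.0082 for the ISWI and INO80 family (12) and −0.021 for erasers outside the rule (8). In these 5 lists the greatest differences in size were those of WDR5 (−0.15), RCOR2 (0.15), BCL7A (−0.21), INO80C (−0.23) and the gene HR (0.11), each with groups that overlapped.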

How the data were processed

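Total RNA of 7-day cultures was analysed on GeneChip Human Gene 2.0 ST arrays, 3 per group, with groups and replicate numbers taken from sample titles. The deposited log2 values, 1 per probe set and array, were made by the authors with Affymetrix Expression Console, and its version, the summarisation method and the genome build were not given in the sources used here. Per the labels, the labelling kit belongs to a different type of array. The scale was read as log2 from the range of the values, which were used as they stand, unfiltered. They carry no measure of signal over background, and the number of arrays limits the precision.

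Genes came from the platform annotation, and all 74 symbols matched RefSeq (GRCh38.p14). For genes, only the 16098 of 53617 probe sets that name exactly 1 gene were used. A gene without such a probe set was counted as not measured, though the array may hold it. The difference was fitted on all 53617 probe sets by limma 3.58.1 (lmFit and eBayes; R 4.3.3). Tests were two-sided, and p-values were adjusted after Benjamini-Hochberg across the whole table and called under 0.05. The fit was also run on simulated data, and no result given here rests on that run. Members were described by counts and medians beside those of all genes (1 probe set per gene). The members and lists were chosen with earlier results of these data known. Named with values were the 5 greatest differences per role among members not dimmer than the median probe set, those at an unadjusted p under 0.05, fixed pairs and families, and up to 2 genes of each related list. Further members were named after their values were seen, as examples of a family. TET3 and the SMARC genes of the fixed families were not analysed here. Plots used matplotlib 3.10.9 (Python 3.11.15). Alternatives were other variance models, array weights, a replicate block, other normalizations, smaller probe set selections, averaging probe sets within genes, a 1.5-fold threshold and leaving out each array.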

Additional observations from a re-analysis of the deposited data

How the results depend on the processing

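The count of probe sets past the adjusted p was 0 under all 14 alternatives by limma, against 2845 at an unadjusted p under 0.05, and all chromatin genes tested kept an interval within 2-fold. With all arrays 0 reached 1.5-fold. Members at an unadjusted p under 0.05 numbered 2, but 1 with an intensity trend and robust variance, 1 with the replicate block, and 0 to 4 with each array left out. They were 0 without control replicate 2 or LA717 replicate 3, and 4 without control replicate 3 (EZH2 and HDAC10 added). Members without overlap went from 5 to between 9 and 18, since fewer arrays overlap less by design. The median of the writers ran from 0.0433 (without control replicate 3) to 0.0745. Of 392 values of 28 named genes under alternatives, 13 changed sign and 0 passed adjustment. HDAC2 turned to 0.0047 with the mean of its probe sets. With each array left out KDM1A ran from −0.0319 to 0.0355, DNMT3B from −0.122 to 0.159, CHD6 from −0.0274 to 0.0994, KDM6A from −0.171 to 0.0535, CHD4 from −0.0762 to 0.0044, HDAC3 from −0.113 to 0.0041, KDM6B from −0.129 to 0.0372 and SUV39H2 from −0.0639 to 0.315. Apart from the smaller number of arrays, the cause was not tested. Deviations of same-numbered arrays correlated at 0.024, 0.015 and 0.033, under the 0.1 asked of pairs, so no pairing was assumed, although all 6 arrays correlated best with their own number, a hint from the data. With the replicate block SETD9 was the 1 member at an unadjusted p under 0.05.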
